A study of Mus musculus with 6 samples.

Results

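The renin-angiotensin system genes described here are 9 genes, *Agt*, *Agtr1a*, *Agtr1b*, *Agtr2*, *Ace*, *Mas1*, *Atp6ap2*, *Lnpep* and *Enpep*, picked by gene name from a count table of 56748 genes. They were measured by RNA-seq in heart tissue of 3 Pontin cTG mice and 3 wild type (WT) littermates, 1 library per mouse. In Pontin cTG mice the αMHC promoter, active in cardiomyocytes, drives a human Pontin cDNA with a flag tag on a C57Bl/6 background, and WT littermates lack the transgene. All were males of 10 weeks of age when the infusion began, and every mouse received angiotensin II (Ang-II) from a mini-osmotic pump for 14 days at 1.5 mg/kg BW/day. The comparison is therefore between genotypes under the infused hormone. Hearts without Ang-II were not analysed here, so the response to the hormone itself is not measured by these libraries. RNA came from tissue of many cell types, in which fewer cells of a type and less RNA per cell cannot be told apart.

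In the circulating system, the kidney enzyme renin cuts angiotensinogen (*Agt*) to angiotensin I, and angiotensin-converting enzyme (*Ace*) trims this to the octapeptide Ang-II. Ang-II acts mainly through the type 1 receptor, which in mice has 2 genes (*Agtr1a* and *Agtr1b*), and through the type 2 receptor (*Agtr2*), which opposes many type 1 effects. Aminopeptidases such as glutamyl aminopeptidase (*Enpep*) shorten Ang-II further, *Lnpep* encodes an insulin-regulated aminopeptidase that binds the resulting Ang-IV, *Mas1* encodes a receptor for an angiotensin heptapeptide, and *Atp6ap2* encodes the prorenin receptor, also an accessory protein of the vacuolar proton pump. In the heart the system is known for its part in hypertrophy and fibrosis.

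The hormone that every mouse received is also encoded by a member of the list, and its codons show where the measured *Agt* transcript carries it. The following stretch of *Agt* is read 5′ to 3′ on the minus strand at chr8:124564438-124564497 of GRCm38 (GENCODE M21), within exon 2 of 5, with the 24 bases that encode Ang-II (codons 30 to 37 of 482) in capitals and 18 bases on each side in lower case.
Agt: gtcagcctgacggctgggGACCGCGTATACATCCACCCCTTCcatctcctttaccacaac

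The type 1 receptor genes are near copies, so their sequences bear on whether reads could be assigned to one or the other. The first 120 bases of each coding sequence are shown with the 8 bases that differ in capitals. *Agtr1a* is on the plus strand at chr13:30380954-30381073, in exon 3 of 3, and *Agtr1b* on the minus strand at chr3:20316321-20316440, in exon 2 of 2 (both GRCm38, GENCODE M21).
Agtr1a: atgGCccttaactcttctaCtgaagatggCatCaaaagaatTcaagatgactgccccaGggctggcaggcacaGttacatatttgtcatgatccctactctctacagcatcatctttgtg
Agtr1b: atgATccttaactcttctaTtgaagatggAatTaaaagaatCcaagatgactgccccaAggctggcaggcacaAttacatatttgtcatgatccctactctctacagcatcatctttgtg

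Over the whole coding sequence of 1077 bases, *Agtr1a* and *Agtr1b* were 90.81% identical, with 99 bases that differed and no gaps. The longest run without a difference was 66 bases, so that no window of 100 bases, the read length given in the study's methods, was the same in both genes. In a search of all transcripts of GENCODE M21, 0 of the 2100 windows of 100 bases of the *Agtr1a* transcript matched another gene exactly, and the same held for 0 of 2048 windows of *Agtr1b*. For *Ace*, 101 of 4807 windows (2.101%) matched *Gm11651*, an antisense gene that shares 295 exon bases with it. The strand setting of the counting is not given in the sources used here, so reads of this stretch cannot be assigned to a strand. The other 6 members had 0 windows in common with another gene. The search took annotated transcripts only and did not cover unspliced ones. Exons of the antisense gene *Airn* lie within the span of *Mas1* and share 0 of its exon bases. Other genes also lie within the spans of *Agtr1a*, *Lnpep* and *Enpep*, again with 0 shared exon bases. Whether reads of such genes enter the members' counts was not tested.

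Total counts of the WT libraries were 12436822 to 13194038, and those of the Pontin cTG libraries 14584102 to 16888124. Pontin cTG replicate 2 stood apart on the first principal component (48.6% of the variance), with a score of 50.9 against -23.1 to 16.2 in the other 5 libraries. The labelled tissue was checked against its markers. The 6 cardiomyocyte markers summed to between 40025.5 and 49948 CPM (counts scaled to a common library size). The atrial markers *Myl7* and *Sln* were at or near 0, with at most 0.478 and 0.0796 CPM, while the third, *Myl4*, had 0.625 to 1.67 CPM in WT and 1.54 to 3.10 CPM in Pontin cTG libraries, highest in replicate 2. The adipocyte markers, of interest because adipose tissue makes angiotensinogen, summed to at most 0.901 CPM over 5 genes. *Ruvbl1*, the mouse gene of Pontin, averaged 218 ± 2.72 normalised counts in WT and 247 ± 5.79 in transgenic hearts (SD of 3 mice). Every transgenic heart lay above every WT heart, as for 4.7% of all genes tested. The log2 fold change, Pontin cTG against WT, was 0.18 with a standard error of 0.12. This difference did not pass an adjusted p of 0.05 in edgeR (unadjusted p = 0.177, adjusted p = 0.999). Whether reads of the human transgene enter the *Ruvbl1* count was not tested.

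The members were compared with each other as CPM per kilobase of gene length (RPKM), because counts of genes of different length are not comparable. Levels are given as mean ± SD over all 6 libraries. *Lnpep* had 13.4 ± 3.25 RPKM, *Ace* 11.7 ± 1.96, *Agtr1a* 10.1 ± 2.44 and *Atp6ap2* 8.54 ± 1.18. The ranges of these 4 genes overlapped and their order changed between libraries, with *Agtr1a* above *Atp6ap2* in 3 of 6 libraries. *Enpep*, with 3.26 ± 0.580 RPKM, lay below *Atp6ap2* in 6 of 6 libraries with no overlap. *Agt* had 2.25 ± 0.651 RPKM and was under *Enpep* in 6 of 6 libraries, although their ranges over all libraries overlapped. *Mas1* followed at 0.327 ± 0.161 RPKM.

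The remaining receptors were at the limit of the depth. *Agtr2* (ENSMUSG00000068122, chromosome X) had 2 counts in all, 1 in WT replicate 1 and 1 in Pontin cTG replicate 2. *Agtr1b* (ENSMUSG00000054988, chromosome 3) had 0 counts in every library, which allows up to 3 counts, or 0.0827 to 0.112 RPKM depending on the library and 0.0164 RPKM over all 6 libraries together. This limit covers counting error only. Of the raw counts on the 4 receptor genes, not scaled for gene length, 96.8% were on *Agtr1a* (2394 counts), 3.07% on *Mas1* (76 counts) and 0.0809% on *Agtr2*. At this depth *Agtr1a* was thus the only type 1 receptor gene with reads in these hearts, in both genotypes. Renin itself was all but absent, with 1 count of *Ren1* in Pontin cTG replicate 2 and 0 in the other 5 libraries.

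**Figure D1:**
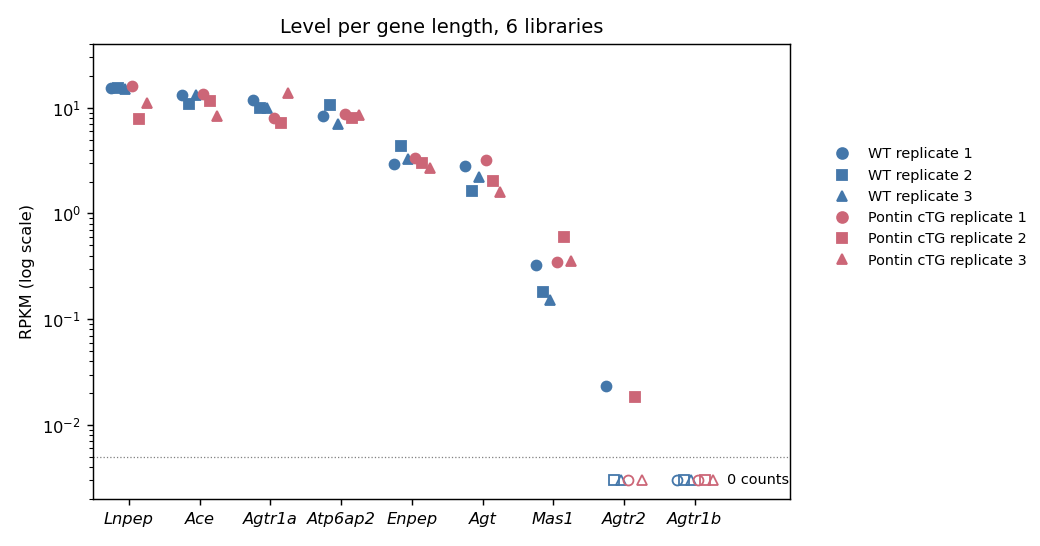
Level of each of the 9 members in each of the 6 libraries, as RPKM on a log scale; blue points are WT and red points Pontin cTG, symbols give the replicate, and open symbols under the dotted line are libraries with 0 counts. *Lnpep*, *Ace*, *Agtr1a* and *Atp6ap2* overlap at 7.03 RPKM and above, *Mas1* lies between 0.151 and 0.603 RPKM, and *Agtr1b* has 0 counts in all libraries.

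Pontin cTG and WT hearts were then compared to ask whether the expression of the system differed with the transgene under Ang-II. No member passed the test for a difference between the genotypes. Of the 9 members, 7 passed the filter on low counts, while *Agtr2* and *Agtr1b* did not. Of these 7, 0 passed an adjusted p of 0.05 (quasi-likelihood test of edgeR, p adjusted by Benjamini-Hochberg over 13888 genes), where 0% of all genes tested passed. At an unadjusted p under 0.05 there were also 0 of 7 members, beside 2.05% of all genes tested (285 genes, 1.02% higher and 1.03% lower in Pontin cTG hearts). This background count was 122 with WT replicate 1 left out and 686 with Pontin cTG replicate 2 left out. DESeq2, which also took in *Agtr2*, gave 0 of 8 members at either threshold. The log2 fold changes, as Pontin cTG against WT, ran from -0.38 in *Lnpep* to 0.96 in *Mas1*, with 5 below and 2 above 0. Their median was -0.13, beside 0.0013 over all genes tested, but it was -0.29 with Pontin cTG replicate 1 left out and -0.020 with replicate 2 left out. The smallest p that an exact permutation test can reach with 3 mice against 3 is 0.1.

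**Figure D2:**
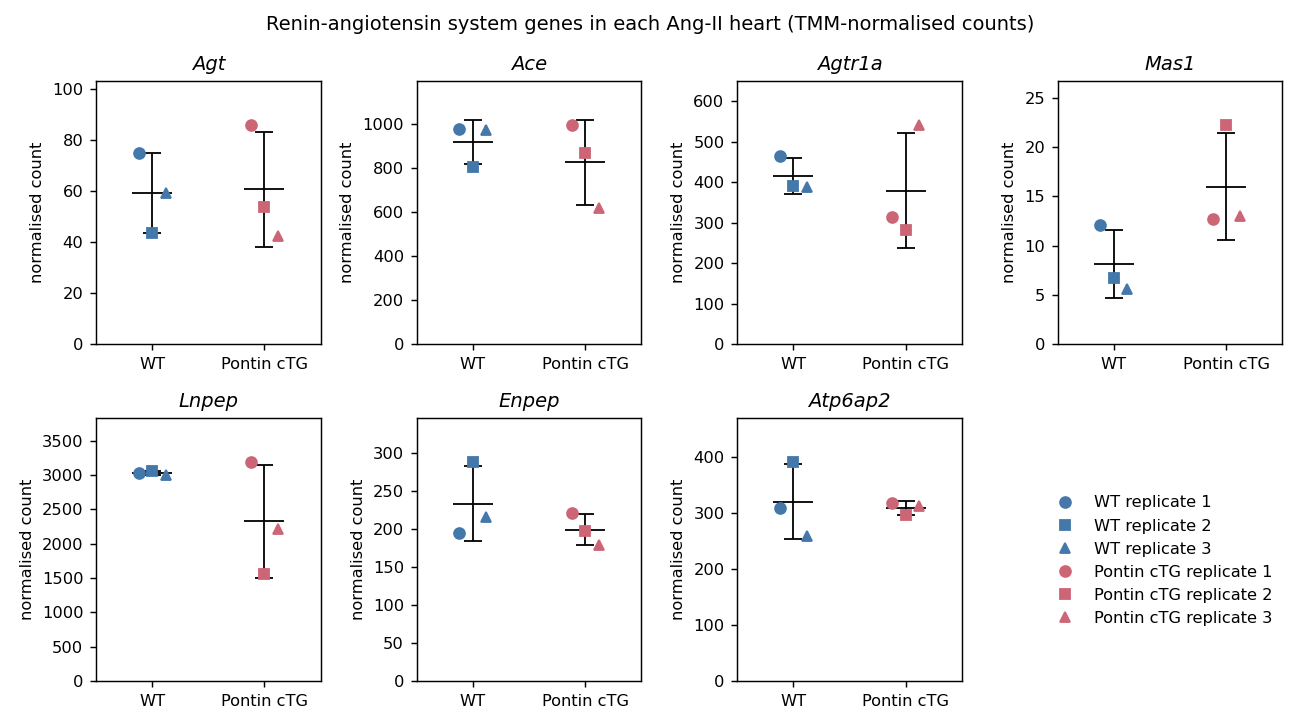
Normalised counts (TMM) of the 7 members that passed the filter, for each heart; horizontal lines are group means and bars are SD over 3 mice, and each axis starts at 0. The groups overlap for 6 genes, and for *Mas1* the lowest Pontin cTG heart (12.7) is just above the highest WT heart (12.1).

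*Agt*, the precursor gene (ENSMUSG00000031980, chromosome 8 from 125283273 to 125296445 in the table, whose positions are those of GRCm39 according to the submitters' processing notes), had 74.9, 43.7 and 59.2 normalised counts in WT replicates 1 to 3, against 85.9, 53.9 and 42.4 in transgenic replicates 1 to 3. The highest and the lowest heart were both transgenic, and the groups overlapped throughout. The means were 59.3 ± 15.6 in WT and 60.8 ± 22.5 in transgenic hearts (SD of 3 mice), a log2 fold change of 0.030 with a standard error of 0.32 (95% interval -0.70 to 0.76, adjusted p = 0.999 from edgeR). With 39 to 88 raw counts per library, the interval spans 0.615-fold to 1.70-fold. Differences within it could not be told apart from no difference, and the interval is not a limit of detection. The sign of the difference was not stable, with -0.29 when Pontin cTG replicate 1 was left out and -0.15 when WT replicate 2 was.

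*Ace*, the converting enzyme (ENSMUSG00000020681, chromosome 11 from 105858771 to 105880790), had 978, 805 and 974 normalised counts in WT replicates 1 to 3, against 997, 868 and 618 in transgenic replicates 1 to 3. A single transgenic heart, replicate 3, lay below the WT range. The log2 fold change was -0.15 with a standard error of 0.19 (95% interval -0.57 to 0.27, adjusted p = 0.999 from edgeR), and 0.021 without Pontin cTG replicate 3. *Ace* is known as an endothelial enzyme in the heart, and the 5 endothelial markers summed to 862 to 873 CPM in WT and, in transgenic replicates 1 to 3, to 828, 1060 and 742 CPM. The lowest sum was in the same library as the lowest *Ace*. The highest sum was in transgenic replicate 2, where *Ace* lay within the range of the other hearts. The part of the endothelial markers in the *Ace* values was not tested.

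*Agtr1a*, the receptor for the infused hormone (ENSMUSG00000049115, chromosome 13 from 30520424 to 30566850), had 466, 390.4 and 389 normalised counts in WT replicates 1 to 3, against 314, 281 and 541 in transgenic replicates 1 to 3. The WT hearts lay close together, with a coefficient of variation of 10.6%, while the Pontin cTG hearts lay on both sides of them, with 37.4%. This difference in spread was not tested. The means were 415 ± 44.0 and 379 ± 142 (SD of 3 mice), a log2 fold change of -0.13 with a standard error of 0.24 (95% interval -0.67 to 0.41, adjusted p = 0.999 from edgeR). Single transgenic libraries set the size and sign of this value. With Pontin cTG replicate 3 left out the log2 fold change was -0.48 with an unadjusted p of 0.0153 (adjusted p = 0.911 from edgeR), and without Pontin cTG replicate 2 it was 0.047 (unadjusted p = 0.829 from edgeR). Without Pontin cTG replicate 3, the heart above the WT range, 408 of 14206 genes tested had an unadjusted p under 0.05. Fibroblast markers, given because cardiac fibroblasts express this receptor, summed to 697 to 1033 CPM in WT and, in transgenic replicates 1 to 3, to 758, 987 and 748 CPM. Their part in the *Agtr1a* values was not tested.

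*Mas1*, the heptapeptide receptor (ENSMUSG00000068037, chromosome 17 from 13059966 to 13087030), had raw counts of 11, 6 and 5 in WT and 13, 26 and 15 in Pontin cTG libraries. In normalised counts these were 12.1, 6.73 and 5.59 in WT and 12.7, 22.3 and 13.0 in Pontin cTG hearts. The groups did not overlap, by a margin of less than 1 count between WT replicate 1 and Pontin cTG replicate 1, and 8.33% of all genes tested had groups that did not overlap (4.7% with Pontin cTG higher, 3.63% with Pontin cTG lower). The log2 fold change was 0.96 with a standard error of 0.47 (95% interval -0.094 to 2.02, unadjusted p = 0.0693, adjusted p = 0.999 from edgeR). *Mas1* passed the filter on low counts, which asks for 0.720 CPM in 3 libraries, through the Pontin cTG group, where 3 of 3 libraries reached it against 1 of 3 in WT. Its difference is therefore partly a condition of its being tested. Leaving out Pontin cTG replicate 2 gave 0.65 (unadjusted p = 0.239 from edgeR) and leaving out WT replicate 1 gave 1.37 (unadjusted p = 0.0469, adjusted p = 0.9998 from edgeR), and the value was 0.51 under limma-voom with sample quality weights. Without WT replicate 1, 122 of 14401 genes tested had an unadjusted p under 0.05. Per gene length, *Agtr1a* exceeded *Mas1* in every heart, 36.2, 54.5 and 65.5 times in WT and 23.3, 11.9 and 39.2 times in transgenic replicates 1 to 3. These ratios overlapped between the groups, with a two-sided p of 0.2 in an exact permutation test of the log2 ratio.

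*Lnpep*, the insulin-regulated aminopeptidase (ENSMUSG00000023845, chromosome 17 from 17741672 to 17845312), had the most counts of the members. It had 3029.5, 3053 and 3002 normalised counts in WT replicates 1 to 3, against 3196.5, 1563 and 2220.2 in transgenic replicates 1 to 3. The WT hearts were nearly alike, with a coefficient of variation of 0.858%, no more than counting error would give, against 35.3% in Pontin cTG hearts. Among the latter, replicate 1 lay above and replicates 2 and 3 below every WT heart. The difference in spread, with 3 mice per group, was not tested. The log2 fold change was -0.38 with a standard error of 0.23 (95% interval -0.91 to 0.15, adjusted p = 0.999 from edgeR), and an exact permutation test gave a two-sided p of 0.4. It was -0.67 without Pontin cTG replicate 1 (unadjusted p = 0.00751, adjusted p = 0.879 from edgeR) and -0.16 without Pontin cTG replicate 2 (unadjusted p = 0.291 from edgeR). Without Pontin cTG replicate 1, the heart above the WT range, 636 of 14211 genes tested had an unadjusted p under 0.05.

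*Lnpep* is also the longest member, with 14144 exon bases, and transcript length moved with the libraries. Among the longest 10% of the genes tested (1389 genes), the median difference of Pontin cTG replicate 2 from the other 5 libraries was -0.17 on the log2 CPM scale, and that of replicate 3 was -0.13, while the other 4 libraries had 0.054 to 0.11. *Lnpep* differed by -0.88 in Pontin cTG replicate 2 and by -0.27 in replicate 3. The part of transcript length in the *Lnpep* values was not tested.

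*Enpep*, the aminopeptidase that removes the first residue of Ang-II (ENSMUSG00000028024, chromosome 3 from 129062824 to 129126369), had 195, 288 and 216 normalised counts in WT replicates 1 to 3, against 221, 197 and 179 in transgenic replicates 1 to 3. WT replicate 2 was higher than the other 5 hearts, which overlapped. The log2 fold change was -0.23 with a standard error of 0.18 (95% interval -0.63 to 0.17, adjusted p = 0.999 from edgeR) and shrank to -0.047 without WT replicate 2. In the heart *Enpep* is known from pericytes. The 5 pericyte markers summed to 1304, 1234 and 1186 CPM in WT replicates 1 to 3, and to 1127, 1018 and 1115 CPM in transgenic replicates 1 to 3. The groups did not overlap in this sum, whereas they overlapped in the sums of the other cell types checked. Of the 5 markers, 5 were below 0 in log2 fold change and 0 passed an adjusted p of 0.05 in edgeR. *Rgs5* and *Abcc9* gave most of the sum, and from which cells the reads of *Abcc9* came was not tested. As a single marker, *Abcc9* alone did not overlap (347 to 390 CPM in WT, 198 to 339 CPM in Pontin cTG libraries), as for 3.63% of all genes tested with Pontin cTG lower. The part of the pericyte markers in the *Enpep* value was not tested.

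*Atp6ap2*, the prorenin receptor (ENSMUSG00000031007, chromosome X from 12454040 to 12483288), had 309, 393 and 259 normalised counts in WT replicates 1 to 3, against 319, 296 and 313 in transgenic replicates 1 to 3. The WT hearts reached further to both sides than the Pontin cTG hearts. The log2 fold change was -0.051 with a standard error of 0.16 (95% interval -0.42 to 0.32, adjusted p = 0.999 from edgeR), the narrowest interval among the members. Its sign changed without WT replicate 2, to 0.12.

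**Figure D3:**
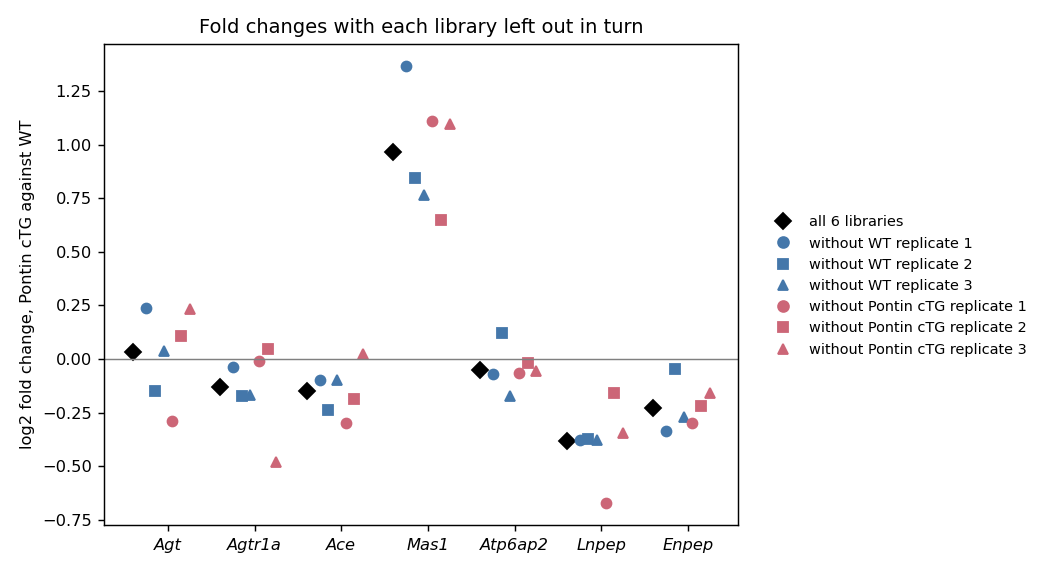
Log2 fold change of each tested member, Pontin cTG against WT, with all 6 libraries (black diamonds) and with each library left out in turn (blue for a WT library left out, red for a Pontin cTG library). *Agt*, *Agtr1a*, *Ace* and *Atp6ap2* fall on both sides of 0, while *Mas1* stays between 0.65 and 1.37 and *Lnpep* between -0.67 and -0.16.

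Other genes of the pathway were taken from a list of 25, made up of the renin genes, further peptidases that make or break angiotensins, proteins that bind the type 1 and type 2 receptors, bradykinin receptors and mineralocorticoid genes. Of these, 24 were in the table and 14 passed the filter on low counts. None of the 14 passed an adjusted p of 0.05 in edgeR, 0 had an unadjusted p under 0.05 (2.05% over all genes tested), and DESeq2 called 0. Of the 14, 4 had a log2 fold change above 0 and 10 below 0, with a median of -0.12 that was -0.00033 with Pontin cTG replicate 3 left out. *Agtrap*, whose protein binds the type 1 receptor and promotes its internalisation, had 680.4 ± 93.8 in WT and 609 ± 53.9 in transgenic hearts (SD of 3 mice) and a log2 fold change of -0.16 with a standard error of 0.14.

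The smallest unadjusted p in this list belonged to *Anpep* (0.0808, adjusted p = 0.999 from edgeR), alanyl aminopeptidase, which acts on the product of *Enpep*. It had 156, 171 and 122 normalised counts in WT replicates 1 to 3, against 87.9, 134 and 113 in transgenic replicates 1 to 3, a log2 fold change of -0.42 with a standard error of 0.21, and the groups overlapped. *Thop1*, thimet oligopeptidase, had 188, 224 and 211 in WT and 267, 264 and 214 in Pontin cTG hearts, a log2 fold change of 0.25 with a standard error of 0.15. *Prep*, prolyl endopeptidase, had a log2 fold change of -0.17 with a standard error of 0.15. Single libraries left out gave -0.31 (Pontin cTG replicate 1) to -0.074 (Pontin cTG replicate 2) for *Prep*, -0.57 (Pontin cTG replicate 2) to -0.26 (Pontin cTG replicate 1) for *Anpep* and -0.27 (WT replicate 2) to -0.090 (WT replicate 3) for *Agtrap*. Both oligopeptidases can make the heptapeptide from angiotensin I, and they had values on opposite sides of 0.

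**Figure D4:**
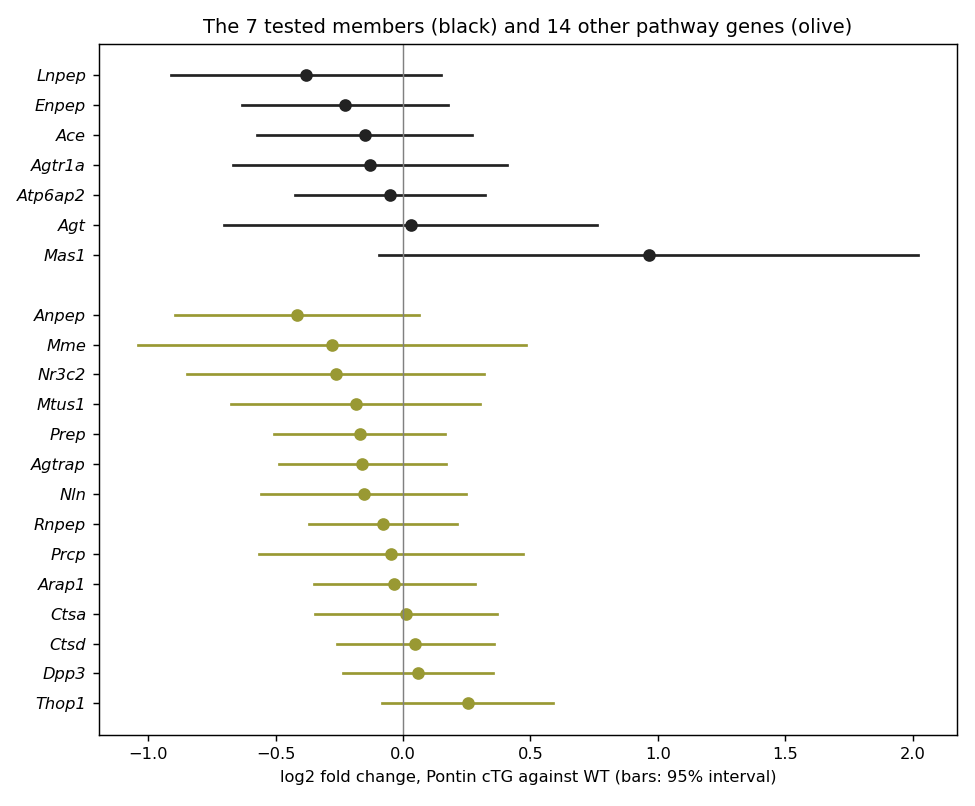
Log2 fold change of Pontin cTG against WT hearts with its 95% interval from edgeR, for the 7 tested members (black) and the 14 other tested genes of the pathway (olive). Every interval includes 0, from the narrow *Rnpep* to the wide *Mas1*, and 10 of the 14 olive points lie below 0.

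Finally, genes that are known to respond to Ang-II or pressure load in the heart were read in the same hearts. Of 24 such genes, 22 passed the filter, 14 with log2 fold changes above and 8 below 0, and a median of 0.11 that was -0.15 with Pontin cTG replicate 2 left out and 0.36 with replicate 3 left out. None passed an adjusted p of 0.05 in edgeR, and 2 of 22 had an unadjusted p under 0.05 (beside 2.05% of all genes tested), 1 in each direction. *Cybb*, the catalytic subunit of NADPH oxidase 2, had 211, 349 and 237 normalised counts in WT replicates 1 to 3, against 177, 185 and 178 in transgenic replicates 1 to 3, with every Pontin cTG heart below every WT heart, as for 3.63% of all genes tested. Its log2 fold change was -0.56 with a standard error of 0.19 (unadjusted p = 0.0180, adjusted p = 0.999 from edgeR), and -0.32 without WT replicate 2, the heart with the highest value. Macrophages express *Cybb*, and the 4 macrophage markers summed to 117 to 182 CPM in WT, highest in WT replicate 2, and 91.6 to 137 CPM in Pontin cTG libraries. Their part in the *Cybb* value was not tested.

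*Cyba*, which encodes the membrane partner of the *Cybb* product, had a log2 fold change of 0.31 with a standard error of 0.17, which was 0.14 with Pontin cTG replicate 2 left out. The immediate-early gene *Egr1* had one of 0.85 with a standard error of 0.22 (unadjusted p = 0.00427, adjusted p = 0.999 from edgeR). *Egr1* stood at 218, 229 and 221 normalised counts in WT and 464, 259 and 478 in transgenic hearts. The groups did not overlap, with Pontin cTG higher, as for 4.7% of all genes tested. The adjusted p of *Egr1* lay between 0.0133 (Pontin cTG replicate 2 left out) and 0.99984 across the alternatives, with 0.0137 under limma-voom. The natriuretic peptide genes, markers of hypertrophy, followed the library that stood apart. *Nppa* had 1550.5, 858 and 1842 normalised counts in WT replicates 1 to 3, against 1205, 7716 and 360.4 in transgenic replicates 1 to 3, and its log2 fold change of 1.13 with a standard error of 0.91 was -0.86 without Pontin cTG replicate 2. *Nppb* had a log2 fold change of 0.17 with a standard error of 0.35, which was -0.41 without that library. In the same heart *Agtr1a* and *Lnpep* each had their lowest normalised count of the 6 hearts, and *Mas1* its highest, from 26 raw counts. *Agt*, *Ace*, *Enpep* and *Atp6ap2* lay there within the range of the other hearts.

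Each tested member was last set against all genes of at least 1 CPM, to find the gene with the most similar course of log2 CPM over the 6 libraries (Pearson correlation). These were *Vps52* for *Agt* (0.972), *Ndufaf5* for *Agtr1a* (0.982), *Utp18* for *Ace* (0.997), *Lage3* for *Mas1* (0.991), *Tada2a* for *Atp6ap2* (0.989), *Plce1* for *Lnpep* (0.997) and *Rab8b* for *Enpep* (0.998). With 6 libraries and 13293 candidates (13294 for *Mas1*) between 30 genes (for *Agt*) and 515 genes (for *Lnpep*) were above 0.9, so these names are given as a description. No member was the closest gene of another.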

How the data were processed

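The values are the deposited counts per Ensembl gene, whole numbers that the authors did not normalise. For their making, the study's methods name Trimmomatic, STAR, mm10 and Gencode M25, whereas the submitters' processing notes list fastp, HISAT2, featureCounts and GRCm39. The deposited positions of every member differ from those of GRCm38 (mm10), with *Agt* starting at 125283273 against 124556534. The build named in the methods is thus not that of the deposited positions. Which trimming, alignment and counting tools were used was not established. Columns were matched to samples by the column names in the labels (0 left unmatched). Members and lists were chosen with earlier results of these data known.

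Low counts were removed with filterByExpr (minimum count 10), TMM factors were computed, and genotype, the single covariate, was tested with glmQLFTest (robust) of edgeR 4.0.16 under R 4.3.3. Over 13888 genes the p-values were adjusted by Benjamini-Hochberg. The standard error is the log2 fold change over the root of F. Normalised counts were scaled to the geometric mean of the TMM library sizes, and RPKM used the table's gene lengths. No 2 libraries agreed within sampling noise (chi-square per gene at least 5.24). The tests were first checked on simulated counts.

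Genes named are all 9 members, *Ren1*, *Agtrap*, *Nppa*, *Nppb*, *Ruvbl1*, the 3 smallest p of each pathway list, and the gene most like each member. *Rnpep*, *Myl4*, *Myl7*, *Sln*, *Rgs5*, *Abcc9*, *Gm11651*, *Airn* and the genes of the closing observations were named after their values had been seen. Alternatives were DESeq2 1.42.0, limma-voom with quality weights (limma 3.58.1), DESeq2 size factors, plain library size, no filter, a minimum of 10 counts in all libraries, removal of mitochondrial genes, a replicate block, each library left out, and gene lengths from GENCODE M21. Coding sequences are from GENCODE M21 (GRCm38); protein sequences and *Ren2* were not used here, and 1 further gene of the planned pathway list is not reported here and was left out of the list's counts.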

Additional observations from a re-analysis of the deposited data

How the results depend on the processing

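The number of members past an adjusted p of 0.05 was 0 under all 14 alternatives, and the adjusted p of the members ran from 0.879 to 0.9998. Of the 97 values of single members, 90 kept their sign. Under limma-voom with quality weights the log2 fold change was -0.016 for *Agt*, 0.059 for *Atp6ap2*, -0.72 for *Nppa* and -0.39 for *Nppb*. Leaving out single libraries gave -0.29 to 0.24 for *Agt*, with -0.15 without WT replicate 2, -0.48 to 0.047 for *Agtr1a*, -0.30 to 0.021 for *Ace*, -0.17 to 0.12 for *Atp6ap2*, -0.86 to 1.65 for *Nppa* and -0.41 to 0.40 for *Nppb*, with -0.0057 for *Nppb* without WT replicate 2. Among all genes, calls numbered 1 in DESeq2, 3 without a filter on low counts, 3 under limma-voom and 0 to 3 with single libraries left out. The median of the other pathway genes (-0.12 with all libraries) ran from -0.10 to -0.00033, and that of the members from -0.29 to -0.020, with single libraries left out. Gene lengths of GENCODE M21 gave the same RPKM. The cause of these shifts was not tested.

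The replicate numbers share no stated litter or batch. Deviations of same-numbered libraries had correlations of 0.077, 0.43 and 0.19, and 2 of 6 libraries correlated best with their own number, so the libraries were not treated as pairs. With the replicate block, 0 genes passed and 499 had an unadjusted p under 0.05 (285 without it, 794 under limma-voom and 122 to 686 with single libraries left out), the members' median was -0.17, and *Lnpep* had a log2 fold change of -0.44 (unadjusted p = 0.0445, adjusted p = 0.944 from edgeR). Depth limits *Mas1*, *Agtr2*, *Agtr1b* and *Ren1*, which had between 0 and 76 counts in all.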

Other observations

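Among further proteases of the pathway list, those of mast cells and neutrophils had few counts. *Cma1*, mast cell chymase, had 12, 4 and 5 counts in WT and 11, 7 and 8 in Pontin cTG libraries. *Mcpt4*, another chymase, had 65 counts in all and *Cpa3*, mast cell carboxypeptidase, had 43, while *Ctsg*, cathepsin G, had 2, both in WT replicate 2. None of these 4 genes passed the filter on low counts, so no test was made. The 5 mast cell markers, 3 of which are in this group, summed to 9.64 to 11.5 CPM in WT and 7.19 to 12.9 CPM in Pontin cTG libraries, of which *Kit*, a gene that other cells also express, gave 8.05 to 9.999 CPM and 5.17 to 10.03 CPM. The lysosomal proteases of the list were abundant by comparison. *Ctsd*, cathepsin D, had 232 ± 14.3 RPKM and *Ctsa*, cathepsin A, 27.2 ± 3.22 RPKM (SD over 6 libraries), with log2 fold changes of 0.048 and 0.011 (standard errors 0.14 and 0.16).

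Of the receptors for bradykinin, the peptide that ACE inactivates, *Bdkrb2* had 6, 8 and 10 counts in WT and 10, 15 and 12 in Pontin cTG libraries, and *Bdkrb1* had 3 counts in all, 0 of them in WT. *Mrgprd*, a further receptor for angiotensin peptides, and *Ace3* had 0 counts in every library, which allows up to 0.0352 CPM over the 6 libraries together.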
